A study of Mus with 15 samples.

Results

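This report describes 8 genes of zinc handling in mouse skin and skin wounds: the metallothionein genes Mt1, Mt2, Mt3 and Mt4, the metal-sensing transcription factor gene Mtf1, the zinc exporter gene Slc30a1, and the metal importer genes Slc39a10 and Slc39a14. They were matched by symbol and are 8 of the 55657 gene models in the count table. All 8 had enough counts to be tested, as did 17122 models in all. The genes were chosen by measured values, the levels and group differences seen in these same libraries, and since no single value is named, every comparison between the groups is counted as used for the choice. Their own levels and fold changes are therefore given as a description: how many passed the threshold used for all genes is stated once, and nothing is read from it. Tests are given for other genes. The other zinc transporters are the whole of both families, while the further gene lists were drawn up with results of these libraries known, so counts over those lists are not independent evidence.

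Metallothioneins are small cysteine-rich proteins that bind zinc and copper and buffer the free metal in the cell. When free zinc rises, MTF1 binds metal response elements in the promoters of Mt1, Mt2 and Slc30a1 and raises their transcription. Glucocorticoids and cytokines of the interleukin 6 family also induce Mt1 and Mt2, and interleukin 6 induces Slc39a14 in liver. SLC30 proteins move zinc out of the cytosol and SLC39 proteins move it in, and zinc is needed for the growth and differentiation of epidermal cells.

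Poly-A RNA was sequenced from 3 groups of 5 libraries each: wound tissue of type I diabetic mice (diabetic wound), wounds of healthy mice (healthy wound) and uninjured skin of healthy mice (normal skin). The groups address how an injury alters skin RNA and how the wound of a diabetic mouse differs from that of a healthy one. The sources used here give no strain, sex, age, time after wounding or way in which diabetes was brought about, and uninjured skin of diabetic mice was not analysed here. Nothing in the labels ties a library to an animal of its own, and the p-values then cover only the spread among these libraries. That may not be a spread among animals.

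Depth was 16.2 ± 0.362 M counts in diabetic wound, 17.5 ± 0.114 M in healthy wound and 16.9 ± 0.862 M in normal skin (SD, n = 5 per group). The samples differed in tissue content. The summed level of 6 fibroblast markers ranged from 1670 to 15800 CPM (read counts divided by the library total and scaled with TMM factors) in diabetic wound, from 22500 to 103000 CPM in healthy wound and from 29000 to 53100 CPM in normal skin. Diabetic wound replicates 4 and 5 had 480 and 1140 CPM of 8 markers of differentiated epidermis, against 7420 to 13500 CPM in the other 3 diabetic wounds, 3280 to 17700 CPM in healthy wound and 8070 to 38600 CPM in normal skin. Basal keratinocyte markers were present in every library, and their lowest sum was 1120 CPM, in diabetic wound replicate 4. Of 4 hair shaft keratin genes, Krt31, Krt33a and Krt35 were at 0 in all diabetic wounds, and the summed level of the 4 ranged from 0 to 0.873 CPM there, from 0.342 to 953 CPM in healthy wound and from 0.291 to 360 CPM in normal skin. The sum of 6 neutrophil markers was 745 to 3250 CPM in diabetic wound, 741 to 3900 CPM in healthy wound and 50.5 to 339 CPM in normal skin. In whole tissue, fewer cells of a type and less RNA per cell cannot be told apart. The part of tissue content in the levels below was not tested, and marker values stand beside only some results. Within the groups, the Pearson r furthest from 0 was with basal keratinocyte markers for Mt1 (−0.52) and Schwann cell markers for Mt3 (0.61). It was with hair shaft markers for Mt4 (0.45) and skeletal muscle markers for Mtf1 (0.75). For Mt2 fibroblast and macrophage markers shared it (−0.39 each). Over all 15 libraries, Mt1 and Mt2 each had −0.77 with fibroblast markers.

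Mt1 and Mt2, the metallothioneins of most tissues, had the highest levels per length of the 8 genes in diabetic wounds, and their means were higher there than in either other group. Mt1 (ENSMUSG00000031765, chromosome 8, 94179082 to 94180327, plus strand, in coordinates of the table, which names no build) had 903, 1620, 312, 1930 and 3020 CPM in diabetic wound replicates 1 to 5. It had 237, 165, 611, 230 and 193 CPM in healthy wound, and 136, 43.6, 301, 209 and 194 CPM in normal skin. All 5 diabetic wounds lay above all normal skins, and 4 of 5 lay above the highest healthy wound, replicate 3, while diabetic wound replicate 3 lay between that library and the others. The fitted log2 fold change of Mt1 was 2.44 (SE 0.59) for diabetic against healthy wound, a 5.42-fold difference. It was 3.14 (SE 0.60) for diabetic wound against normal skin and 0.70 (SE 0.56) for healthy wound against normal skin, where the groups overlapped. Over all 17122 genes tested, the diabetic wounds lay entirely above the healthy wounds for 5.27% and entirely below for 4.52%, and entirely above the normal skins for 6.09% and below for 5.26%. These comparisons share libraries, so their values are not independent of one another.

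Mt2 (ENSMUSG00000031762, chromosome 8, 94172664 to 94173568, plus strand) was lower than Mt1 in every library and followed the same order of libraries in the diabetic wounds. Its levels were 118, 223, 41.2, 225 and 400 CPM in diabetic wound, 18.3, 10.3, 40.1, 17.5 and 19.5 CPM in healthy wound, and 2.50, 1.80, 19.2, 22.5 and 29.3 CPM in normal skin. All 5 diabetic wounds lay above all libraries of both other groups, by a small margin for diabetic wound replicate 3 over healthy wound replicate 3. Its log2 fold change was 3.25 (SE 0.74) for diabetic against healthy wound, 3.74 (SE 0.76) for diabetic wound against normal skin and 0.49 (SE 0.69) for healthy wound against normal skin. Without diabetic wound replicates 4 and 5 together, the libraries with little epidermis, the log2 fold change for diabetic against healthy wound was 1.72 for Mt1 and 2.59 for Mt2.

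Together Mt1 and Mt2 took 0.175 ± 0.117% of all counts in diabetic wound, 0.0310 ± 0.0197% in healthy wound and 0.0195 ± 0.0108% in normal skin (SD, n = 5 per group). The share reached 0.339% in diabetic wound replicate 5 and was 0.0349% in replicate 3. The highest level in the diabetic wounds was 9.69 times the lowest for Mt1 and 9.70 times for Mt2, so both genes spread alike within that group.

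**Figure D1:**
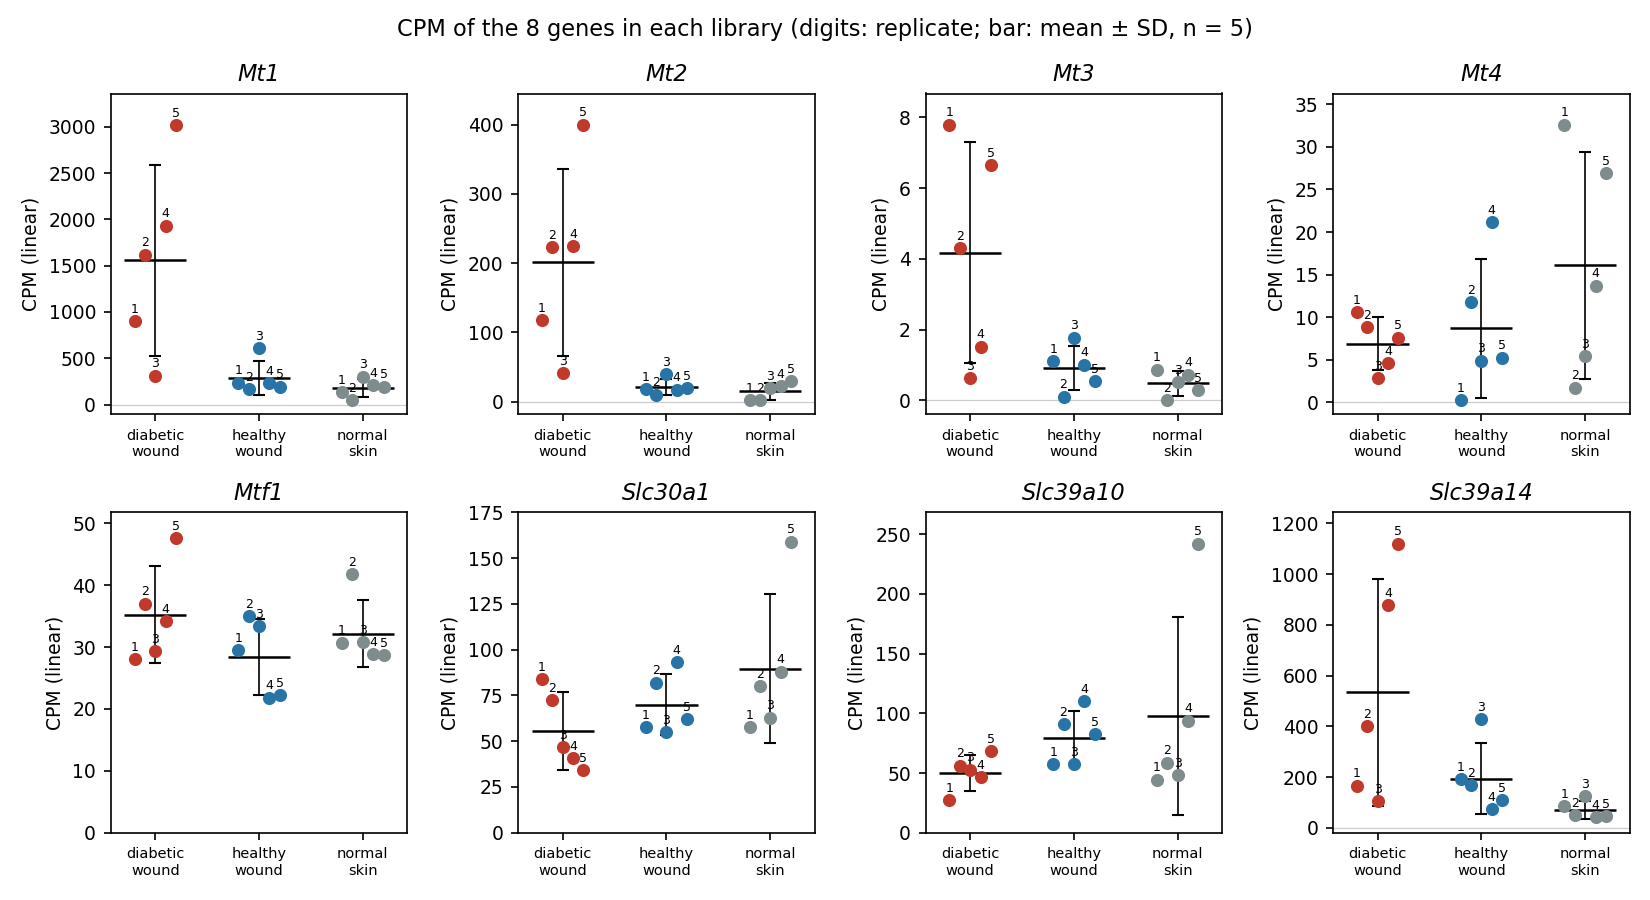
Levels of the 8 genes in each library, in TMM-scaled CPM on linear axes that differ between panels; points are libraries, digits are replicate numbers, and bars are the mean ± SD of 5 libraries. Mt1 and Mt2 are high in diabetic wound, with replicate 5 highest (3020 and 400 CPM) and replicate 3 lowest (312 and 41.2 CPM). All diabetic wounds lie above all other libraries for Mt2, and above all normal skins but not all healthy wounds for Mt1. For every other gene diabetic wound overlaps both other groups.

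The balance between the 2 genes also differed between diabetic and healthy wound. Diabetic wounds had 7.68, 7.26, 7.56, 8.58 and 7.55 Mt1 counts for each Mt2 count, healthy wounds had 13, 15.9, 15.2, 13.1 and 9.90, and normal skins had 54.4, 24.2, 15.7, 9.31 and 6.61. The diabetic wounds lay in a narrow band below all healthy wounds, while normal skin spanned both. Ratios of other gene pairs were not computed and both genes were chosen by measured values, so nothing is read from this. The highest 2 ratios in normal skin, in replicates 1 and 2, rest on 43 and 27 Mt2 counts. A gene model on the opposite strand, Gm45774, overlaps Mt2, and its count came to 0.515% to 3.80% of the Mt2 count in diabetic wound, 0.321% to 4.84% in healthy wound and 0% to 32.6% in normal skin. The library kit does not mark strand, so reads of the 2 models cannot be told apart.

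**Figure D2:**
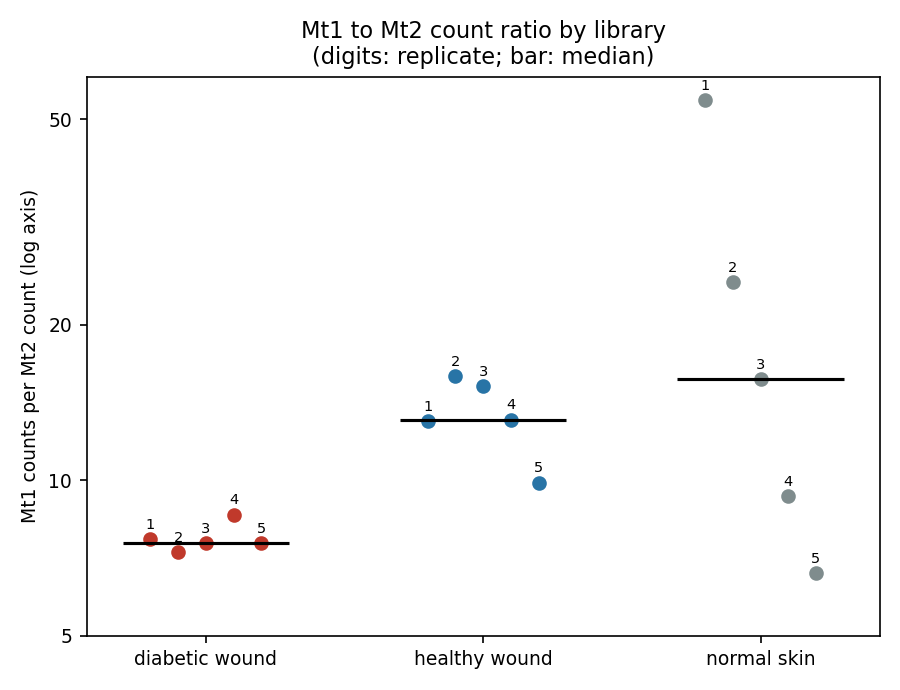
Mt1 counts per Mt2 count in each library, on a log axis; points are libraries, digits are replicate numbers and bars are group medians. The 5 diabetic wounds lie between 7.26 and 8.58, the healthy wounds between 9.90 and 15.9, and the normal skins between 6.61 and 54.4.

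Mt3, a metallothionein best known from brain, was sparse in skin but was higher in most diabetic wounds. Mt3 (ENSMUSG00000031760, chromosome 8, 94152607 to 94154146, plus strand) had 7.79, 4.30, 0.624, 1.52 and 6.64 CPM in diabetic wound. It had 1.11, 0.111, 1.77, 1.01 and 0.549 CPM in healthy wound, and 0.873, 0, 0.510, 0.725 and 0.291 CPM in normal skin. Diabetic wound replicates 1, 2 and 5 lay above every healthy wound, and all but replicate 3 lay above every normal skin. These values rest on 333 counts over the 5 diabetic wounds, 80 over the healthy wounds and 42 over the normal skins. The log2 fold change was 2.19 (SE 0.81) for diabetic against healthy wound, 3.09 (SE 0.85) for diabetic wound against normal skin and 0.90 (SE 0.82) for healthy wound against normal skin.

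Mt4, the metallothionein of stratified squamous epithelium, showed no such difference. Mt4 (ENSMUSG00000031757, chromosome 8, 94137197 to 94139031, plus strand) had 10.6, 8.85, 2.87, 4.62 and 7.60 CPM in diabetic wound, 0.222, 11.8, 4.91, 21.2 and 5.25 CPM in healthy wound, and 32.6, 1.73, 5.44, 13.7 and 26.9 CPM in normal skin. The 3 groups overlapped, and the widest spread was in healthy wound, where replicate 4 had 95.6 times the level of replicate 1. The log2 fold change was −0.33 (SE 0.82) for diabetic against healthy wound, −1.22 (SE 0.83) for diabetic wound against normal skin and −0.89 (SE 0.82) for healthy wound against normal skin. Diabetic against healthy wound was 0.31 without healthy wound replicate 4, so its sign turned with that library. Diabetic wound replicate 3, the lowest of its group for Mt1, Mt2, Mt3 and Mt4 alike, was also the highest in basal keratinocyte markers (18800 CPM) and the lowest in skeletal muscle markers (1120 CPM) among the diabetic wounds.

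Mtf1, which encodes the factor that senses zinc and turns on Mt1 and Mt2, stayed within a narrow range. Mtf1 (ENSMUSG00000028890, chromosome 4, 124802104 to 124849800, plus strand) had 28, 37, 29.3, 34.2 and 47.6 CPM in diabetic wound, 29.5, 35.0, 33.4, 21.8 and 22.2 CPM in healthy wound, and 30.7, 41.8, 30.8, 28.9 and 28.7 CPM in normal skin. All 3 groups overlapped, and diabetic wound replicate 5 was the highest library. The log2 fold change was 0.31 for diabetic against healthy wound, 0.13 for diabetic wound against normal skin and −0.18 for healthy wound against normal skin (SE 0.20 each).

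Slc30a1 encodes ZnT1, the exporter of the cell membrane that MTF1 induces together with Mt1 and Mt2, and it was not higher in diabetic wounds. Slc30a1 (ENSMUSG00000037434, chromosome 1, 191906767 to 191913247, plus strand) had 84.0, 72.5, 46.7, 40.7 and 34.3 CPM in diabetic wound, 57.7, 82.0, 55.0, 93.0 and 62.2 CPM in healthy wound, and 57.7, 79.9, 62.9, 88.0 and 159 CPM in normal skin. Diabetic wound replicates 3, 4 and 5 lay below every library of the other groups, and replicates 1 and 2 lay among them. The log2 fold change was −0.33 for diabetic against healthy wound, −0.68 for diabetic wound against normal skin and −0.35 for healthy wound against normal skin (SE 0.30 each). Diabetic wound against normal skin was −0.37 without normal skin replicate 5. Without diabetic wound replicates 4 and 5, diabetic against healthy wound was −0.05. Within the groups, Slc30a1 followed the differentiated epidermis markers (Pearson r 0.65) and ran against the neutrophil markers (r −0.75) over the 15 libraries, a description with no test.

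Slc39a10 encodes ZIP10, a zinc importer that in mouse skin is known from hair follicle cells and that MTF1 lowers in mouse cells. Slc39a10 (ENSMUSG00000025986, chromosome 1, 46807544 to 46892852, minus strand) had 27.4, 56.2, 52.7, 46.6 and 68.5 CPM in diabetic wound, 57.6, 91.0, 57.6, 110 and 82.5 CPM in healthy wound, and 44.6, 58.7, 48.4, 94.0 and 242 CPM in normal skin. Diabetic wound replicates 1 to 4 lay below every healthy wound, and replicate 5 lay among them. For Slc39a10 the log2 fold change was −0.67 (SE 0.42) for diabetic against healthy wound, −0.96 (SE 0.42) for diabetic wound against normal skin and −0.29 (SE 0.41) for healthy wound against normal skin. Normal skin replicate 5, at 242 CPM, decided the comparisons with normal skin: without it the values were −0.29 for diabetic wound and 0.38 for healthy wound. That library had the highest hair shaft sum of normal skin (360 CPM), the 2 highest healthy wounds for Slc39a10, replicates 4 and 2, had 92.2 and 953 CPM, and no diabetic wound was above 0.873 CPM. Not every library followed this: normal skin replicate 3 had a hair shaft sum of 117 CPM but 48.4 CPM of Slc39a10. Within the groups, Slc39a10 had an r of 0.62 with the hair shaft markers. Its r was as far from 0 with endothelium (−0.62), and nearly so with macrophage (−0.59) and Schwann cell markers (−0.58). The part of hair or other tissue content in Slc39a10 was not tested.

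Slc39a14 encodes ZIP14, an importer of zinc, manganese and iron, and it ranged more widely than Slc39a10. Slc39a14 (ENSMUSG00000022094, chromosome 14, 70303469 to 70351425, minus strand) had 166, 402, 105, 878 and 1120 CPM in diabetic wound, 191, 167, 428, 73.7 and 109 CPM in healthy wound, and 85.2, 50.5, 125, 42.8 and 46.6 CPM in normal skin. Diabetic wound replicates 4 and 5 lay above every other library, replicate 2 lay just under the highest healthy wound, and replicates 1 and 3 lay among the healthy wounds. All diabetic wounds but replicate 3 were above the highest normal skin. For Slc39a14 the log2 fold change was 1.46 (SE 0.61) for diabetic against healthy wound, 2.93 (SE 0.64) for diabetic wound against normal skin and 1.47 (SE 0.61) for healthy wound against normal skin. Without diabetic wound replicates 4 and 5 together, it was 0.21 for diabetic against healthy wound and 1.68 for diabetic wound against normal skin. Without healthy wound replicate 3 alone, healthy wound against normal skin was 0.95. Within the groups Slc39a14 ran with the skeletal muscle markers (r 0.80) and against those of differentiated epidermis (r −0.73) and basal keratinocytes (r −0.83), whose part in its level was not tested.

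**Figure D3:**
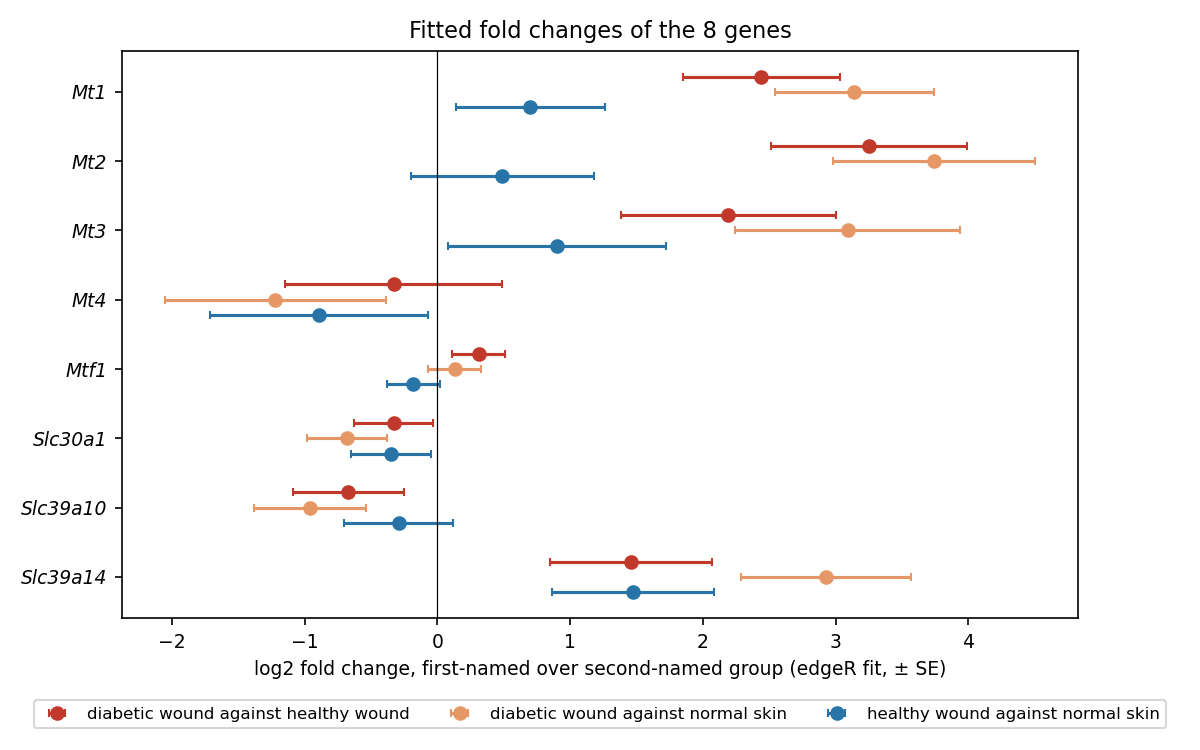
Fitted log2 fold changes of the 8 genes with their SE for the 3 comparisons, the first-named group over the second. Mt1, Mt2, Mt3 and Slc39a14 lie to the right of 0 in both diabetic comparisons (1.46 to 3.74), while Mt4, Slc30a1 and Slc39a10 lie to the left.

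Of the 8 genes, 2 (Mt1 and Mt2) passed an edgeR adjusted p of 0.05 for diabetic against healthy wound, beside 9.15% of all 17122 genes (5.13% higher and 4.02% lower). For diabetic wound against normal skin 4 passed, namely Mt1, Mt2, Mt3 and Slc39a14, beside 19.1% of all genes (10.7% higher and 8.44% lower). For healthy wound against normal skin 0 passed with edgeR and 0 with DESeq2, 1 (Slc39a14) had an unadjusted p under 0.05, and 1.13% of all genes passed (0.777% higher and 0.350% lower). Since the genes were chosen with these comparisons in view, nothing is read from these counts. The members' median log2 fold change was 0.89, 1.53 and 0.15 in these 3 comparisons. These medians are shaped by the same choice, and nothing is read from them either. The calls for diabetic against healthy wound leaned on single libraries: over all genes they numbered 1567, and between 230 without healthy wound replicate 5 and 2925 without diabetic wound replicate 3. Those for diabetic wound against normal skin numbered 3272, and 2029 without diabetic wound replicate 5, and those for healthy wound against normal skin 193, and 3 without healthy wound replicate 5.

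Levels of different genes were compared per length, as RPKM (reads per kilobase of the table's gene length and library total, on the CPM scale). In diabetic wound the order of mean levels was Mt1 (1250 ± 828 RPKM), Mt2 (342 ± 230), Slc39a14 (50.6 ± 42.2), Mt4 (17.3 ± 7.86), Slc30a1 (10.6 ± 4.10), Slc39a10 (8.25 ± 2.48), Mtf1 (3.95 ± 0.875) and Mt3 (3.92 ± 2.92; SD, n = 5 throughout). Neighbours in that order overlapped in range, though within each diabetic wound Mt1 was above Mt2 and Mt2 above Slc39a14. In healthy wound Mt1 (230 ± 147 RPKM) stood clear of Mt2 (36 ± 19), which overlapped with Mt4 (21.8 ± 20.5) and Slc39a14 (18.4 ± 13.2). In normal skin Mt4 (40.4 ± 33.6 RPKM) had a higher mean than Mt2 (25.6 ± 21.0) but was above it in 3 of 5 libraries, and Slc39a14 (6.63 ± 3.32) came after Slc30a1 (17.1 ± 7.75) and Slc39a10 (16.0 ± 13.6). The model length is 1246 bases for Mt1 and 588 for Mt2, so the per-length gap between them depends on those models.

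Over the 15 libraries, the gene most like Mt1 in log2 CPM among 14808 genes ranked was Mt2 (Pearson r 0.955, Spearman rho 0.896, r 0.867 within groups). The libraries share their groups, depth and tissue content, so these values are a description with no test. The next for Mt1 were Akt1, Sav1, Hsd11b1 and Celsr3 (r 0.939 to 0.954), of which Hsd11b1 encodes the enzyme that regenerates active glucocorticoid. After Mt1, those most like Mt2 were Pelo, Ctu2, Ppp1cc and Akt1 (r 0.927 to 0.945). Mt1 also ran with Mt3 (r 0.86, rho 0.80, r 0.70 within groups) and Slc39a14 (r 0.86, rho 0.72, r 0.75 within groups), while its r was lower with Mtf1 (r 0.32, rho 0.22, r 0.19 within groups) and Mt4 (r 0.05, rho −0.25, r 0.25 within groups).

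The genes most like Slc39a14 were Adamts9, a matrix protease gene (r 0.951), Il1r1, the interleukin 1 receptor (r 0.943), Stat3, the transcription factor of interleukin 6 signalling (r 0.940), Mcoln2 (r 0.935) and Osmr, the oncostatin M receptor (r 0.934). Their r within groups was 0.888 to 0.923. For Slc30a1 they were Pgap3, Wif1, Megf9, Lgalsl and Cdca7l (r 0.900 to 0.950), and for Slc39a10 Senp1 (r 0.952) followed at a distance by Kif26a, Rhot2, Msi1 and Dlx4 (r 0.835 to 0.850). For Mtf1 they were Nol9, Rprd2, Usp31, Mief1 and Gpd2 (r 0.882 to 0.912). For the sparse Mt3 they were Chrac1, Mtx1, Snhg6, Syf2 and Gtf2a2 (r 0.895 to 0.927), and for Mt4 Sebox, Tmem159, Psmc5, Wnt11 and Maneal (r 0.744 to 0.782).

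Few other zinc transporters passed the test. Of 21 other SLC30 and SLC39 genes, 18 had enough counts to be tested, and none rose in any comparison by the edgeR quasi-likelihood test over all 15 libraries with no block (adjusted p under 0.05 over all genes). In diabetic against healthy wound 1 of 18 fell, beside 4.02% of all genes. This was Slc39a13, which encodes ZIP13, a transporter whose loss in humans causes a connective tissue disorder of the Ehlers-Danlos group. It had 30.4 ± 5.04 CPM in diabetic wound and 48.6 ± 9.52 CPM in healthy wound (SD, n = 5 each; log2 fold change −0.68, SE 0.20, edgeR adjusted p = 0.0466), with 4 of 5 diabetic wounds below all healthy wounds. Fibroblast markers were lower in the same comparison, 3 of 6 by the same test, and their part in this was not tested. The call held only without diabetic wound replicate 4 or normal skin replicate 5 and was lost without any other single library (edgeR adjusted p up to 0.124). Slc39a13 also overlaps Psmc3 on the opposite strand.

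For diabetic wound against normal skin, 1 of 18 fell, beside 8.44% of all genes. This was Slc39a3, which encodes the zinc importer ZIP3 (26.6 ± 4.47 CPM in diabetic wound and 39.0 ± 7.22 CPM in normal skin, log2 fold change −0.55, SE 0.18, edgeR adjusted p = 0.0397). Its call held without diabetic wound replicate 3 or 4, healthy wound replicate 2 or 3 or normal skin replicate 2, and was lost without each of the other 10 libraries (edgeR adjusted p up to 0.0954). Between healthy wound and normal skin 0 of 18 passed with edgeR and 0 with DESeq2, and 0 had an unadjusted p under 0.05. The median log2 fold change of the 18 was −0.17 for diabetic against healthy wound, −0.02 for diabetic wound against normal skin and 0.07 for healthy wound against normal skin, against −0.02, −0.01 and 0.01 for all genes. Slc39a4, the importer whose loss in humans causes the zinc deficiency skin disease acrodermatitis enteropathica, had 2.67 ± 1.17 CPM in diabetic wound, 2.47 ± 1.42 CPM in healthy wound and 0.938 ± 1.00 CPM in normal skin and did not pass in that fit. Against normal skin its diabetic wounds were called higher by limma-voom (log2 fold change 2.15, adjusted p = 0.0431) and without normal skin replicate 2 (2.4, edgeR adjusted p = 0.0234). Slc30a4, a vesicular zinc transporter, was called higher in the same comparison without diabetic wound replicate 3 or 4 or normal skin replicate 2 (log2 fold change 0.64 to 0.71, edgeR adjusted p up to 0.0487), against 0.53 (SE 0.22, edgeR adjusted p = 0.0968) with all libraries. Slc39a4 and Slc30a4 were named after their values were seen. Slc30a8, the transporter of insulin granules, had 0 counts in all 15 libraries.

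The list of genes known from other mouse cells or tissues to depend on MTF1 held Gclc, Selenow, Ndrg1, Csrp1, Slc40a1 and Pgf. Of these 6, 2 fell and none rose with edgeR in diabetic against healthy wound, beside 4.02% and 5.13% of all genes. By sign, 3 had positive and 3 negative fold changes. DESeq2 called 3, of which 1 was higher, beside 3174 calls over all genes, of which 1695 were higher. Slc40a1, the iron exporter ferroportin, had 13.8 ± 5.79 CPM in diabetic wound and 57.7 ± 37.6 CPM in healthy wound (SD, n = 5 each; log2 fold change −2.06, SE 0.44, edgeR adjusted p = 0.0188). Csrp1, a cytoskeletal LIM protein, had 115 ± 43.6 and 217 ± 43.0 CPM in the same groups (log2 fold change −0.91, SE 0.24, edgeR adjusted p = 0.0337). For both genes all diabetic wounds lay below all healthy wounds, as for 4.52% of all genes. Fibroblast markers were lower in the same comparison, 3 of 6 by the same test, and their part in this was also not tested. The call of Slc40a1 was lost without diabetic wound replicate 2 (edgeR adjusted p = 0.0503), and that of Csrp1 without diabetic wound replicate 2 or 4 or healthy wound replicate 1, 2, 4 or 5 (edgeR adjusted p up to 0.0741). Without diabetic wound replicates 4 and 5 together, 0 of the 6 passed in that comparison, beside 658 calls over all genes.

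Pgf, placental growth factor, rose in both kinds of wound relative to normal skin: it had 10.9 ± 6.61 CPM in diabetic wound, 7.44 ± 1.68 CPM in healthy wound and 1.42 ± 0.817 CPM in normal skin. Its log2 fold change over normal skin was 2.94 (SE 0.50, edgeR adjusted p = 0.00297) in diabetic wound and 2.39 (SE 0.50, edgeR adjusted p = 0.035) in healthy wound. The call in healthy wound was lost without any single normal skin or without healthy wound replicate 1, 3, 4 or 5 (edgeR adjusted p up to 0.0845). Of the 6 genes, 1 passed in each comparison with normal skin, beside 19.1% of all genes for diabetic wound and 1.13% for healthy wound. The median log2 fold change of the 6 was −0.03 for diabetic against healthy wound. It was 0.27 for diabetic wound against normal skin and 0.74 for healthy wound against normal skin.

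Metallothioneins also bind copper, and of 11 copper handling genes 1 passed in each diabetic comparison, beside 9.15% of all genes against healthy wound and 19.1% against normal skin, so the list's share was close to or under that of all genes. Atp7a, the copper-exporting ATPase, fell for diabetic against healthy wound, with 28.2 ± 4.42 CPM in diabetic wound and 42.8 ± 2.56 CPM in healthy wound (log2 fold change −0.60, SE 0.18, edgeR adjusted p = 0.0456). Steap3, a metalloreductase, fell for diabetic wound against normal skin, with 34.5 ± 20.5 CPM in diabetic wound and 108 ± 31.7 CPM in normal skin (log2 fold change −1.64, SE 0.50, edgeR adjusted p = 0.0329). Between healthy wound and normal skin 0 of 11 passed with edgeR and 0 with DESeq2, and 0 had an unadjusted p under 0.05. The call of Atp7a held without diabetic wound replicate 3 or normal skin replicate 2, 4 or 5 and was lost without each of the other 11 libraries (edgeR adjusted p up to 0.0993). That of Steap3 was lost without diabetic wound replicate 1 or 2 or normal skin replicate 3 or 4 (edgeR adjusted p up to 0.0725).

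Of 6 genes induced by glucocorticoids, 4 rose in diabetic against healthy wound, beside 5.13% of all genes. All 6 (Fkbp5, Tsc22d3, Zbtb16, Per1, Sgk1 and Klf9) had positive fold changes, with a median log2 fold change of 1.57 against −0.02 for all genes, while Zbtb16 (edgeR adjusted p = 0.0574) and Tsc22d3 (0.0628) did not pass. The list was drawn up with results of these libraries known. In the same comparison 3 of 6 fibroblast, 2 of 4 T cell and 2 of 4 hair shaft markers fell, and all 5 skeletal muscle markers had positive fold changes (median 1.23 on the log2 scale, none passing), with sums of 1120 to 13800 CPM in diabetic wound and 1080 to 7820 CPM in healthy wound. The part of these tissues in the list's values was not tested. Klf9, a transcription factor, had 270 ± 139 CPM in diabetic wound and 63.8 ± 19.7 CPM in healthy wound (log2 fold change 2.08, SE 0.44, edgeR adjusted p = 0.0178). Per1, of the circadian clock, had 288 ± 173 and 64.3 ± 20.7 CPM in the same groups (log2 fold change 2.16, SE 0.50, edgeR adjusted p = 0.0228). Sgk1, a kinase, had 440 ± 212 CPM in diabetic wound and 147 ± 71.8 CPM in healthy wound (1.58 on the log2 scale, SE 0.40, with an adjusted p of 0.0311 from edgeR). Fkbp5, a chaperone of the glucocorticoid receptor, had 311 ± 108 and 157 ± 37.2 CPM in these groups (0.98, SE 0.26, with an adjusted p of 0.033 from edgeR), and its diabetic wounds lay above all healthy wounds, as for 5.27% of all genes.

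These calls leaned on single libraries. That of Klf9 was lost without healthy wound replicate 5 (edgeR adjusted p = 0.0538), and that of Per1 without diabetic wound replicate 2 or 5 or healthy wound replicate 4 or 5 (edgeR adjusted p up to 0.0624). That of Sgk1 was lost without diabetic wound replicate 1, 2 or 5 or healthy wound replicate 1, 3, 4 or 5 (edgeR adjusted p up to 0.0766), and that of Fkbp5 without diabetic wound replicate 1, 2, 4 or 5 or healthy wound replicate 1, 2, 4 or 5 (edgeR adjusted p up to 0.0865). Without diabetic wound replicates 4 and 5 together 0 of 6 passed, with no low-count filter 1 passed, and DESeq2 called all 6. Calls over all genes numbered 658, 574 and 3174 in these settings, against 1567 in the main fit. For diabetic wound against normal skin 3 of 6 rose, beside 10.7% of all genes: Sgk1 by 2.02 (SE 0.41), Per1 by 2.05 (SE 0.49) and Fkbp5 by 0.76 (SE 0.26) in log2 units, with edgeR adjusted p-values of 0.00595, 0.013 and 0.0493. The first 2 stayed called with any single library left out, and Fkbp5 only without diabetic wound replicate 3 or normal skin replicate 3 (otherwise edgeR adjusted p up to 0.115). For healthy wound against normal skin 0 of 6 passed with edgeR and 0 with DESeq2, and 1, Zbtb16, had an unadjusted p under 0.05. Zbtb16 was lower in healthy wound (29.4 ± 17.2 CPM) than in normal skin (75.6 ± 39.7 CPM). Of the 6, 5 had negative fold changes in this comparison and 1 a positive one, with a median of −0.48 on the log2 scale.

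Most cytokine signalling genes had positive fold changes over normal skin in both kinds of wound, 11 of 12 in each. Of these genes (Il6, Il1b, Tnf, Osm, Lif, Il6st, Osmr, Stat3, Socs3, Saa3, Lcn2 and Hp), 7 rose in diabetic wound against normal skin, beside 10.7% of all genes, and the median log2 fold change was 2.97. This list too was drawn up with results of these libraries known. Saa3, an acute-phase gene, had 1410 ± 834 CPM in diabetic wound and 37.2 ± 38.7 CPM in normal skin (log2 fold change 5.25, SE 0.76, edgeR adjusted p = 0.00176). Socs3, the feedback inhibitor of STAT3, rose by 3.12 (SE 0.49), Lcn2, an iron-binding defence protein, by 5.39 (SE 1.05), and Il6 by 5.26 (SE 1.26) in log2 units, with edgeR adjusted p-values of 0.00227, 0.00505 and 0.0125. Without diabetic wound replicate 5 these values were 4.86 for Saa3, 2.59 for Socs3, 3.73 for Lcn2 and 4.42 for Il6, and all 4 stayed called with any single library left out, though limma-voom did not call Il6. Without diabetic wound replicates 4 and 5 together, 4 of the 12 passed, and calls over all genes numbered 1994 in place of 3272. Stat3 (1.04, SE 0.25) and Osmr (1.34, SE 0.38), which are among the 5 genes most like Slc39a14 above, were among the 7 (edgeR adjusted p = 0.013 and 0.0262), as was Osm. The call of Osm was lost without diabetic wound replicate 5 (edgeR adjusted p = 0.0564), and that of Osmr without that library or normal skin replicate 1, 4 or 5 (edgeR adjusted p up to 0.0778).

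For healthy wound against normal skin 1 of the 12 rose, Saa3 (log2 fold change 4.15, SE 0.73, edgeR adjusted p = 0.0206), whose call was lost without healthy wound replicate 1, 3 or 5 or normal skin replicate 1 or 4 (edgeR adjusted p up to 0.0654). For diabetic against healthy wound 0 of 12 passed with edgeR and 3 with DESeq2, 4 had an unadjusted p under 0.05, and 4 passed without diabetic wound replicate 3. Calls over all genes numbered 1567 with edgeR, 3174 with DESeq2 and 2925 without that library. Against normal skin 5 of 6 neutrophil markers rose in diabetic wound, beside 10.7% of all genes. In healthy wound 4 of 6 rose, beside 0.777% of all genes. The lists parted between diabetic and healthy wound, where 10 of 12 cytokine signalling genes had positive fold changes (median 0.70 on the log2 scale). There 4 of 6 neutrophil markers had negative ones (median −0.25). The part of neutrophils in these values was not tested. Within the groups, Slc39a14 ran with the mean log2 CPM of the cytokine list (r 0.71) and of the glucocorticoid list (r 0.70). For Mt1 these values were 0.64 and 0.33, and for Mt2 they were 0.36 and −0.07, all over 15 libraries and with no test.

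**Figure D4:**
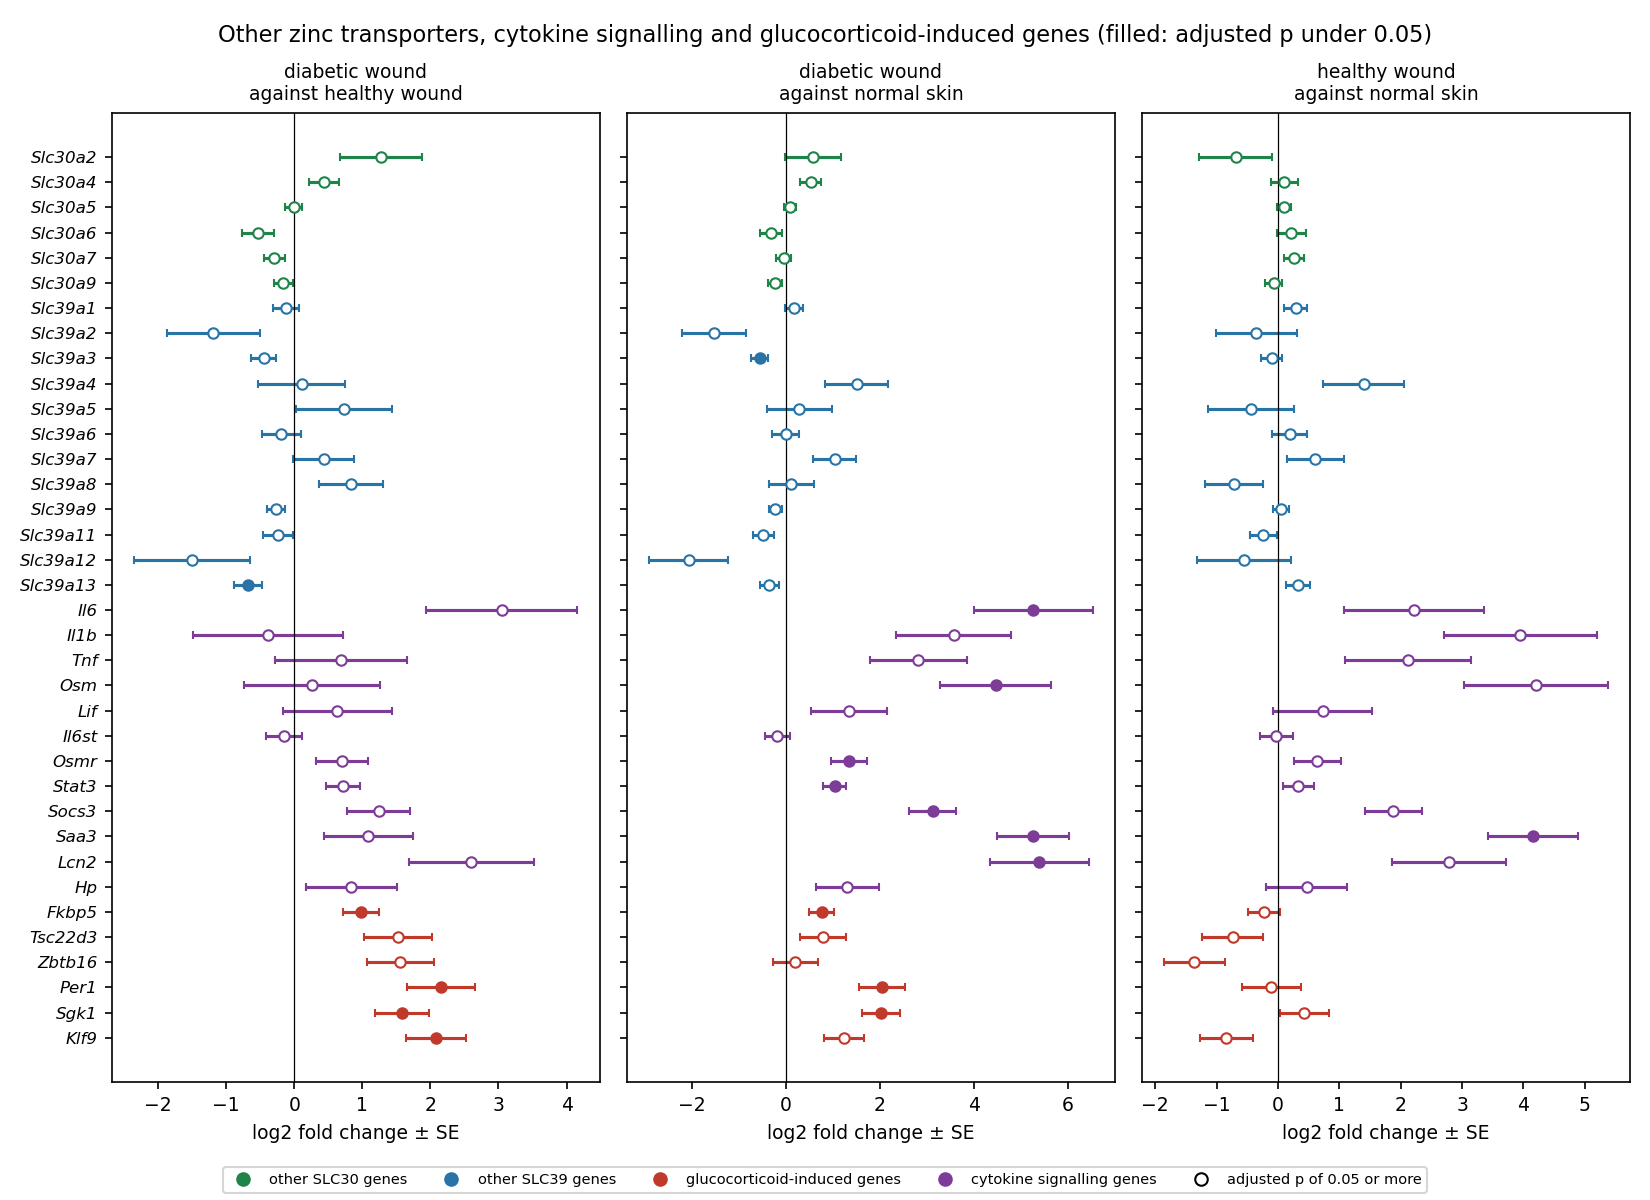
Log2 fold changes with their SE of the 18 other SLC30 and SLC39 genes tested, the 12 cytokine signalling genes and the 6 glucocorticoid-induced genes in the 3 comparisons; filled points passed an edgeR adjusted p of 0.05, and the axes of the panels differ. In diabetic against healthy wound 1 zinc transporter (Slc39a13, −0.68) and 4 glucocorticoid-induced genes (0.98 to 2.16) are filled, and in diabetic wound against normal skin 7 cytokine signalling genes are.

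The 4 metallothionein genes lie within 43.1 kb on the plus strand of chromosome 8, in the order Mt4, Mt3, Mt2, Mt1. Within 250 kb on either side the table has 8 protein-coding genes, of which 7 were tested. Between diabetic and healthy wound 0 of the 7 passed with edgeR, and 2 had an unadjusted p under 0.05. For diabetic wound against normal skin Nup93, a nuclear pore gene 34.2 kb beyond Mt1, rose (66.9 ± 20 CPM in diabetic wound and 37.0 ± 7.17 CPM in normal skin, log2 fold change 0.86, SE 0.20, edgeR adjusted p = 0.0119), as did Nudt21, an mRNA 3′ end processing gene (0.51, SE 0.17, edgeR adjusted p = 0.0487). Ogfod1, a prolyl hydroxylase gene, fell (23.2 ± 7.49 CPM in diabetic wound and 39.7 ± 5.47 CPM in normal skin, log2 fold change −0.78, SE 0.21, edgeR adjusted p = 0.0198). All diabetic wounds lay below all normal skins for Ogfod1, as for 5.26% of all genes. Both Nup93 and Ogfod1 stayed called with any single library left out, but Nup93 was not without diabetic wound replicates 4 and 5 together, nor Ogfod1 in a fit of the 2 groups alone. The call of Nudt21 held without diabetic wound replicate 3 or 4 or normal skin replicate 4 or 5 and was lost without each of the other 11 (edgeR adjusted p up to 0.107). Between healthy wound and normal skin 0 of 7 passed with edgeR, and 2 had an unadjusted p under 0.05. For diabetic wound against normal skin, Nup93, Nudt21 and Ogfod1 of the 7 passed, beside 19.1% of all genes. In that comparison the 7 tested neighbours had log2 fold changes between −1.21 (Gnao1) and 0.86 (Nup93). Mt4 had −1.22, and Mt3, Mt2 and Mt1 had 3.09 to 3.74. The metallothioneins were chosen with these comparisons in view, so nothing is read from that gap.

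**Figure D5:**
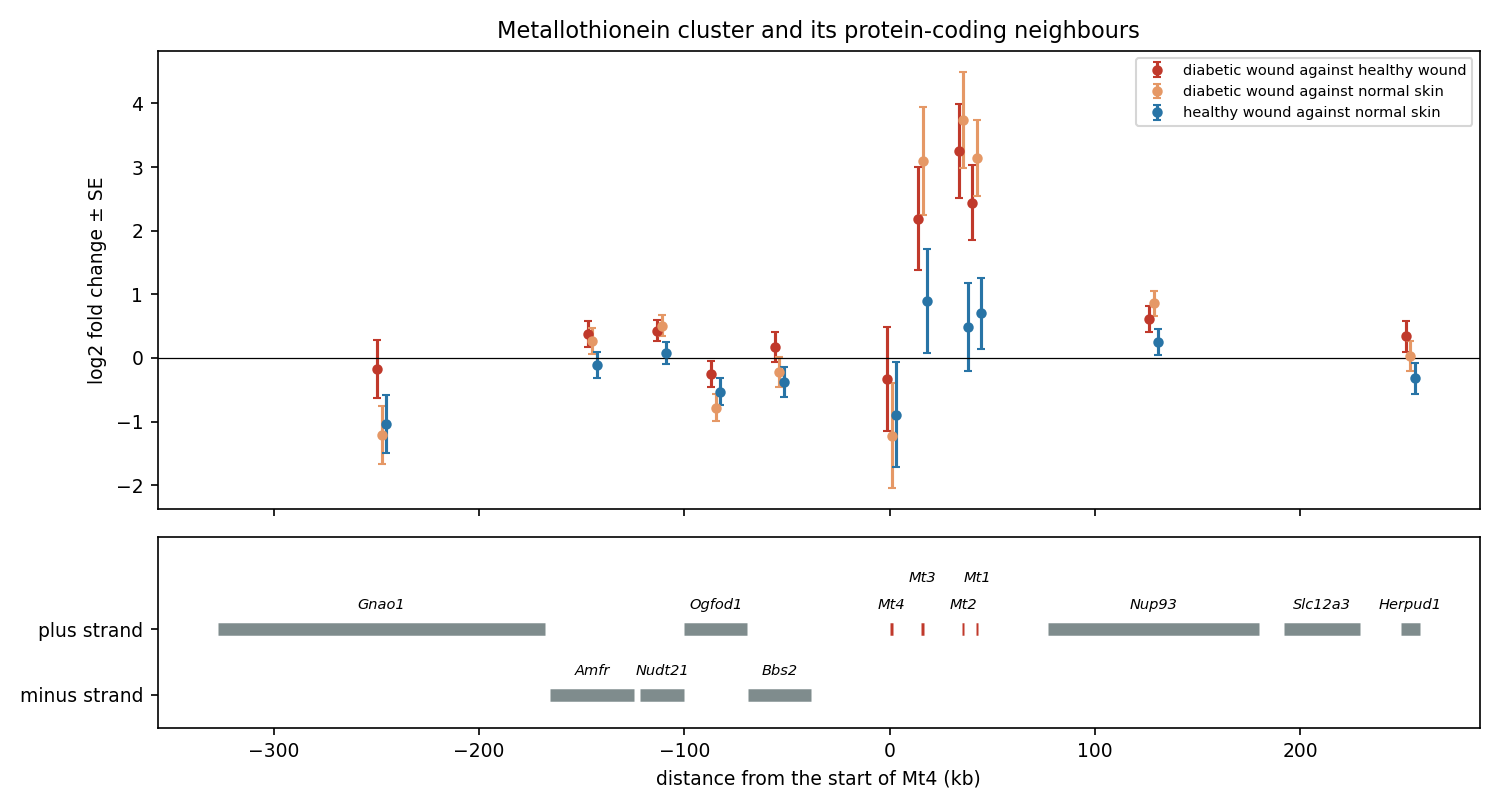
The metallothionein cluster and its protein-coding neighbours: log2 fold changes with their SE in the 3 comparisons (top) above the gene models by strand (bottom), against the distance in kb from the start of Mt4. Mt3, Mt2 and Mt1, chosen with these comparisons in view, lie between 2.19 and 3.74 in both diabetic comparisons. Mt4 and the neighbours tested lie between −1.22 and 0.86 in all 3, and Slc12a3 was not tested.

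Of the other 4 genes, Mtf1 overlaps 2 further gene models, Slc30a1 overlaps 1 (on the opposite strand), Slc39a10 overlaps 2 and Slc39a14 overlaps none. The models over Slc39a10 (Gm28151 and Gm37393) and n-R5s192 over Mtf1 lie on the strand of the gene itself, so strand would not separate their reads. Reads of models on opposite strands cannot be told apart without strand.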

How the data were processed

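The authors deposited a table of whole-number read counts per gene with gene lengths, from poly-A RNA of TRIzol extracts and NEBNext Ultra libraries, per the labels' protocols. That kit, unlike its directional form, does not mark strand. No aligner, counter, strand setting or genome build is named in the sources used here. Ends of 7 of the 8 genes lay within 5000 bp of a GRCm38.p6 RefSeq table, and coordinates are printed as the authors deposited them. Diabetic columns numbered 5 to 9 in the table are replicates 1 to 5 by their labels. The members and gene lists were chosen with earlier results of these data known.

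In R 4.3.3, edgeR 4.0.16 fitted all 15 libraries of the 3 groups together (filterByExpr, TMM factors, robust glmQLFit and glmQLFTest, 12 residual degrees of freedom). A gene was called where its Benjamini-Hochberg adjusted p over 17122 genes was under 0.05. CPM and RPKM use TMM-scaled library sizes, log2 CPM a prior count of 2, and the SE of a fold change is its size divided by the square root of F. Procedures were tested on simulated data. Named genes are the 8 members, every other SLC30 or SLC39 gene called, the 4 called genes with the smallest p of each other list, and the 5 genes most like each member by Pearson correlation, leaving out clone names and bare identifiers. Neighbours of the cluster, Osm, Slc39a4, Slc30a4, Tsc22d3 and the uncalled Zbtb16 were named after their values were seen.

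As alternatives, other scalings (RLE, upper quartile, library size), no low-count filter, a stricter one (1 CPM or more in 5 libraries and a mean of 5 CPM), DESeq2 1.42.0, limma-voom (limma 3.58.1), fits of 2 groups alone, the replicate block and fits that left out libraries were tried. The omission of diabetic wound replicates 4 and 5 together was chosen with earlier results known, and the alternatives for gene lists other than zinc transporters and for the cluster's neighbours were added after seeing the data. No columns within a group were identical, and chi-square per degree of freedom for the closest pair of libraries was 70.54 in diabetic wound, 36.12 in healthy wound and 39.52 in normal skin.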

Additional observations from a re-analysis of the deposited data

Results flagged for a closer look

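Among the 24 sets of 5 libraries (8 genes in 3 groups), 3 held a library far from the other 4, where chance alone flags about 1 set in 20. Mt1 had 611 CPM in healthy wound replicate 3, against 165 to 237 CPM in the other healthy wounds; the same library was the highest healthy wound for Mt2 (40.1 CPM), Mt3 (1.77 CPM) and Slc39a14 (428 CPM). Mtf1 had 41.8 CPM in normal skin replicate 2, against 28.7 to 30.8 CPM in the other normal skins; this library was the lowest normal skin for Mt1 (43.6 CPM), Mt2 (1.80 CPM) and Mt4 (1.73 CPM), and had 0 counts of Mt3. Slc39a10 had 242 CPM in normal skin replicate 5, against 44.6 to 94.0 CPM in the other normal skins; this library was also the highest normal skin for Slc30a1 (159 CPM) and for hair shaft markers (360 CPM).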

How the results depend on the processing

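The count of other zinc transporters called for diabetic against healthy wound was 0 in place of 1 under RLE scaling, no low-count filter, limma-voom, a fit of the 2 groups alone, the replicate block and without diabetic wound replicates 4 and 5, and 0 to 1 without single libraries. For diabetic wound against normal skin it was 0 in place of 1 without a filter, in the fit of 2 groups and without diabetic wound replicates 4 and 5, 2 with DESeq2 and limma-voom, and 0 to 3 without single libraries. For healthy wound against normal skin it stayed at 0 in every alternative run. Replicate numbers showed no clear pairing of the libraries (correlations of deviations between −0.21 and 0.24, and 3 of 15 libraries closest to their own number). The 3 of 15 pairs over 0.1 were all in healthy wound against normal skin. Replicates 1 to 5 had 0.24, −0.05, 0.1, 0.23 and 0.12 there, against a median of −0.08 for unlike numbers, so a weak pairing there cannot be dismissed. With the replicate block, calls over all genes numbered 173 in place of 1567 for diabetic against healthy wound, 2207 in place of 3272 for diabetic wound against normal skin and 91 in place of 193 for healthy wound against normal skin. With the replicate block the 1 zinc transporter called for diabetic wound against normal skin was Slc39a4, higher (log2 fold change 1.85, adjusted p = 0.0483), in place of Slc39a3, lower, and 0 in place of 4 glucocorticoid-induced genes were called for diabetic against healthy wound. Over all genes, DESeq2 counted 3174, 4811 and 1147 calls in the same order of comparisons, no low-count filter 574, 2138 and 91, and fits of 2 groups 801, 1430 and 537. Of 597 alternative values for the 24 fold changes of the 8 genes, 595 lay within 1 SD of the reported value. The 2 that did not were both of Slc39a14 without diabetic wound replicates 4 and 5. That SD was 1 value per gene and a wide measure. A shift of Slc39a10 from −0.96 to −0.29 for diabetic wound against normal skin lay within it, so the count says little about stability. The sign of 3 small fold changes turned under some setting, those of Mt4 for diabetic against healthy wound, Mtf1 for diabetic wound against normal skin and Slc39a10 for healthy wound against normal skin. The causes were not tested. Mt3, at 0 to 7.79 CPM, is limited by depth.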
